A study of Homo sapiens with 9 samples.

Results

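The 10 genes described here are parts of the retinoic acid pathway, and they were picked by symbol: ALDH1A2 and DHRS3, which act on retinaldehyde; CRABP1 and CRABP2, which carry retinoic acid in the cytoplasm; RARA, RARB and RARG, the nuclear receptors; and CYP26A1, CYP26B1 and CYP26C1, which break retinoic acid down. All 10 were found among the 26871 genes present in the 3 deposited count tables, and 8 passed the filter on low counts in each comparison, while CYP26A1 and CYP26C1 stayed below it. Messenger RNA was measured by bulk sequencing in 9 libraries of spinal cord organoids (SCOs), neural tissue grown in suspension from the human induced pluripotent stem cell line WTC after neuromesodermal induction. The labels give the genotype as WT, while the study made its SCOs from edited clones of WTC that carry a reporter in the SOX10 locus, some with indels on the other SOX10 allele, and the labels do not tie a library to a clone. The 9 libraries fall into 3 conditions with 3 libraries each: vehicle (FGF), VPA (valproic acid, an inhibitor of histone deacetylases) and VPA + Rapamycin (an inhibitor of mTOR), for 96 h by the labels, where the study's text gives a shorter exposure. FGF was the base condition of the SCOs, and the labels name no added retinoic acid. The study's medium also held culture supplements, and whether these brought retinoids was not examined here. The study's text and its methods give different VPA doses. Each RNA sample came from several pooled SCOs of a single clone by the study's account, with 3 clones in all.

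Retinoic acid is made from vitamin A in a pair of oxidation steps, retinol to retinaldehyde and then retinaldehyde to the acid, and is removed by CYP26 enzymes. In the nucleus RAR proteins bind DNA as dimers with RXR proteins, recruit corepressors without ligand and coactivators with it, and act on targets such as the HOX genes. In the elongating body axis retinoic acid from the somites opposes FGF at the tail end and sets the start of neural differentiation in the spinal cord.

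Libraries held 15290299 to 17417338 reads on genes, and 3 counts, taken as the smallest level told from 0, correspond to 0.172 to 0.196 CPM (reads scaled to a common library total). Levels are given as CPM scaled by TMM factors over the 9 libraries, with SD and n = 3. The chi-square per gene between replicates, about 1 for sampling noise alone, ranged from 12.3 to 35.1 for vehicle, from 4.53 to 7.04 for VPA and from 6.14 to 13.2 for VPA + Rapamycin, so the vehicle libraries stood furthest apart. The tissue label was checked with markers. Summed levels of 6 neural progenitor genes were 2216 to 2575 CPM in vehicle, those of 7 neuron genes 1287 to 2182 CPM, and those of 7 trunk HOX genes 684 to 1243 CPM. Of 6 brain genes the sum was 16.0 and 17.1 CPM in a pair of vehicle libraries and 107 CPM in vehicle replicate 3, without which the 4 member calls with VPA held, and OTX2 had 0 counts in all VPA libraries. Whole SCOs were sequenced, so fewer cells of a type and less RNA per cell cannot be told apart. By the study's account the 3 libraries of a condition stand for 3 clones of 1 cell line, so p-values measure the spread between clones and not between donors. The labels repeat 3 library tags across the conditions, without saying that a tag marks a clone.

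Per kilobase of gene length, the members ranged in vehicle from abundant messages to ones near 0. CRABP1 stood highest at 267 ± 46.8 CPM per kilobase and CRABP2 next at 97.8 ± 23.6. RARA followed at 9.49 ± 0.99, CYP26B1 at 5.07 ± 1.33 and RARB at 2.45 ± 0.45. The libraries of these 5 genes did not overlap with those of their neighbours in this order. DHRS3 at 0.834 ± 0.057 and RARG at 0.763 ± 0.387 CPM per kilobase overlapped with each other. ALDH1A2 at 0.0455 ± 0.0280, CYP26C1 at 0.0282 ± 0.0376 and CYP26A1 at 0.0272 ± 0.0235 also overlapped, near the limit of detection. In VPA libraries the order changed at a single place among the 5 upper genes, where CYP26B1 at 9.01 ± 1.25 CPM per kilobase stood above RARA at 4.87 ± 0.38, with no overlap.

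**Figure D1:**
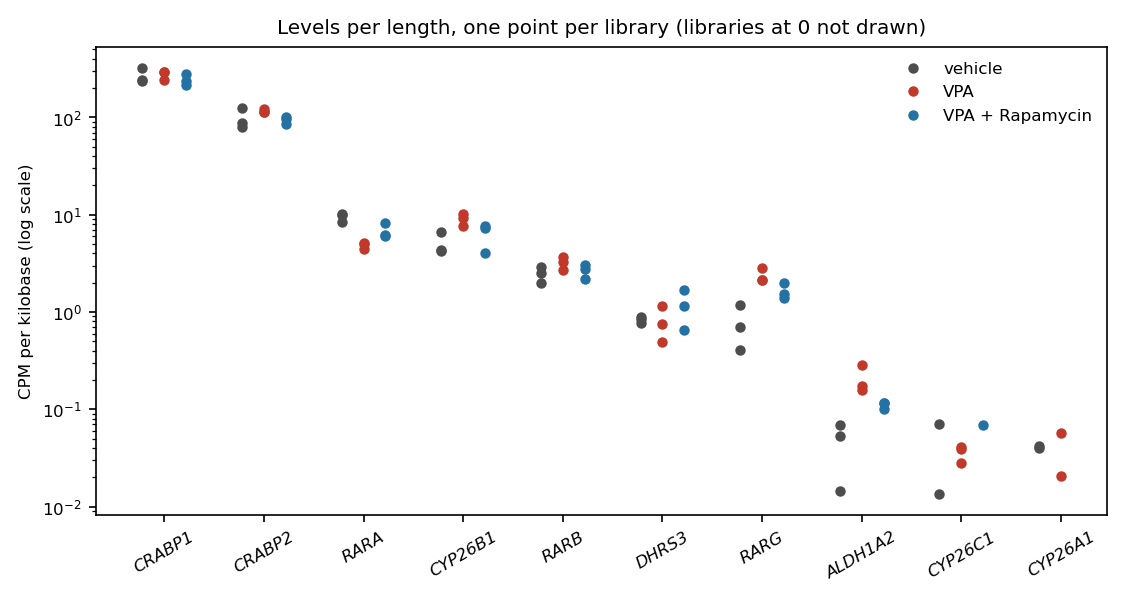
Levels of the 10 retinoic acid genes in CPM per kilobase of gene length on a log axis, ordered by the vehicle mean, with a point for each library coloured by condition and libraries at 0 left out. CRABP1 and CRABP2 lie far above the receptors, ALDH1A2 and 2 of the CYP26 genes lie lowest, and RARA and CYP26B1 change places between vehicle and VPA.

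VPA raised RARG, CYP26B1 and ALDH1A2 and lowered RARA. These are 3 higher and 1 lower of the 8 members tested, with adjusted p no higher than 0.05 in the quasi-likelihood test of edgeR, and the median log2 change of the 8 was 0.31. Over all 17360 genes tested in this comparison, 16.4% were called higher and 15.7% lower, and the median log2 change was -0.003. When Rapamycin was added to VPA, RARA was higher and CRABP2 lower than with VPA alone. That is 1 of 8 in each direction, with a median of -0.29, where 3.01% of 17317 genes were called higher and 3.73% lower. Against vehicle, VPA + Rapamycin left RARG higher and RARA lower, again 1 of 8 in each direction, with a median of 0.21, where 9.81% of 17383 genes were called higher and 9.22% lower. Each library enters a pair of these comparisons, so the comparisons are not independent of each other. With VPA, 7492 of the 17360 genes had an unadjusted p of at most 0.05 (edgeR). The share of all genes whose groups do not overlap was not counted, so a lack of overlap alone does not set a member apart.

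**Figure D2:**
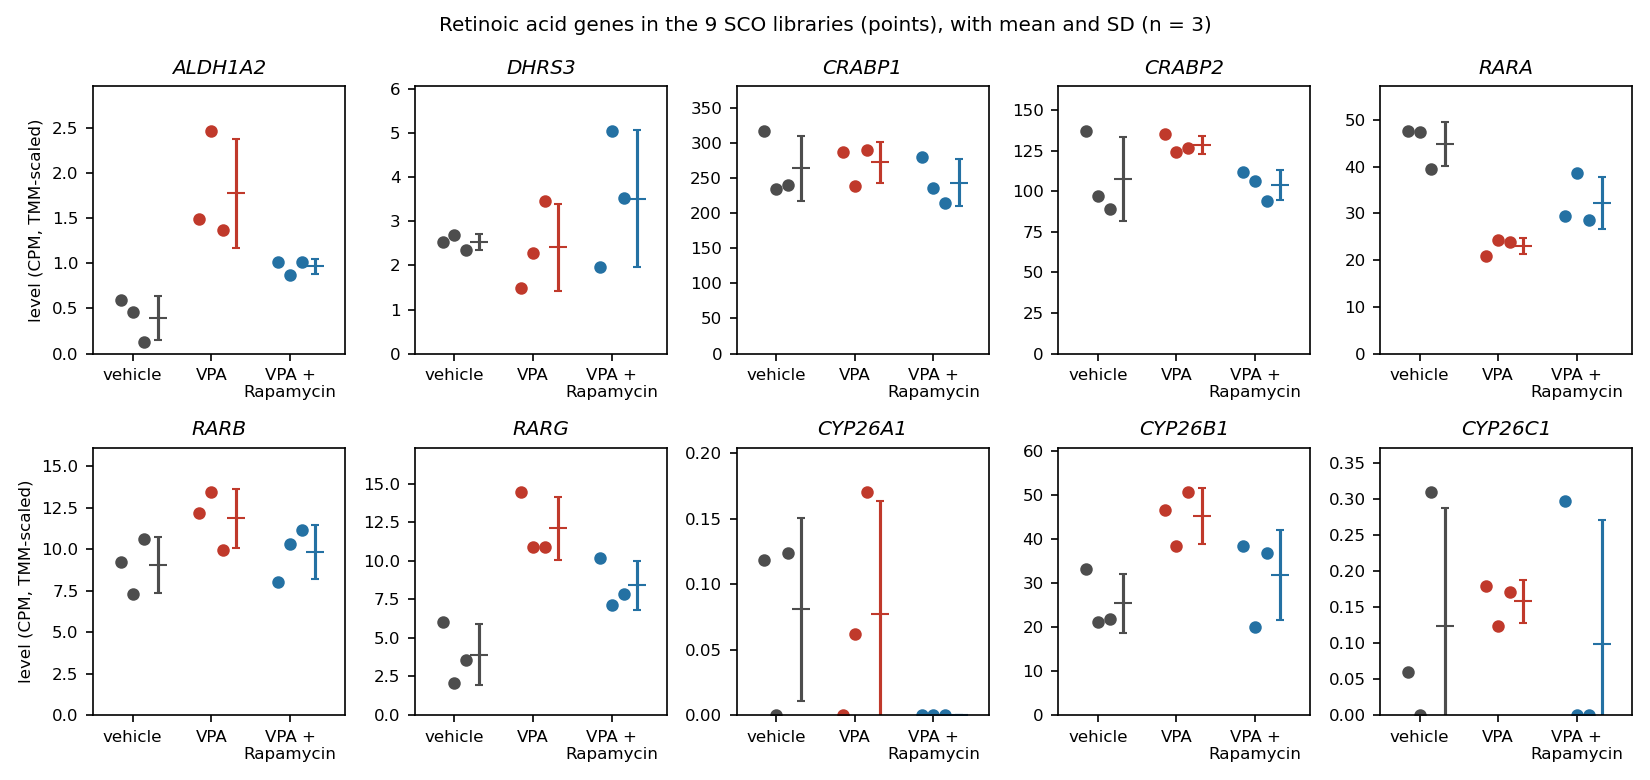
Level of each gene in CPM by condition, with a point for each of the 9 libraries and the mean and SD of 3 libraries beside them, on linear axes that start at 0. RARG, CYP26B1 and ALDH1A2 lie higher and RARA lower in all VPA libraries than in all vehicle libraries, CRABP1 and DHRS3 overlap between conditions, and CYP26A1 and CYP26C1 stay at 0 to 5 counts. The share of all genes that separate in this way was not counted.

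Synthesis was examined first. ALDH1A2 (ENSG00000128918, chromosome 15 of GRCh38 from 57953424 to 58497866, minus strand), the retinaldehyde dehydrogenase of the somites and of the spinal motor columns, had 10, 7 and 2 counts in vehicle. It had 25, 40 and 24 counts with VPA and 17, 15 and 16 with VPA + Rapamycin. All VPA libraries lay above all VPA + Rapamycin libraries, and these above all vehicle libraries, at levels that are low throughout. In CPM this was 0.392 ± 0.241, 1.77 ± 0.60 and 0.964 ± 0.079. VPA raised ALDH1A2 by 4.41-fold (95% confidence interval 1.93 to 10.1), a log2 change of 2.14 (SE, standard error, of 0.55, adjusted p = 0.0122, edgeR). Without VPA replicate 2, which had the highest count, the log2 change was 1.84 with an adjusted p of 0.0719 (edgeR). Where at least 10 counts were required in each library, ALDH1A2 was not tested. With Rapamycin added the log2 change against VPA was -0.87 (SE 0.41, adjusted p = 0.223), and against vehicle it was 1.27 (SE 0.57, adjusted p = 0.142, both from edgeR). The two-sided exact permutation test gave p = 0.1 in each comparison of ALDH1A2, the smallest that 3 libraries against 3 allow.

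The promoter of ALDH1A2 is shown because this gene had the largest rise among the members, with the match to a GC box (GGGCGG on either strand, a binding motif of SP1 and its relatives) in capitals. The window holds 250 bases before and 50 bases after a start given by RefSeq on GRCh38.p14, at chr15:58065662-58065961 on the minus strand.
ALDH1A2 promoter: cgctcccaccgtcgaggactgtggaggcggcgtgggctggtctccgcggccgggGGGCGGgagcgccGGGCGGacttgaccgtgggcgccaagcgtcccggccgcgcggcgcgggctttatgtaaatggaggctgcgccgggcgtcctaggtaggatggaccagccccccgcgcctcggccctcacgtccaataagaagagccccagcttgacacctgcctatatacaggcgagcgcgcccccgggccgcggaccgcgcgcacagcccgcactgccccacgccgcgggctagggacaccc
It holds 41 CG dinucleotides at 74.0% G and C, and 2 GC boxes. The other RefSeq start of ALDH1A2, at chr15:58013974-58014273, has 1 CG dinucleotide, 42.7% G and C and no GC box. Counts per gene do not tell which start was used. A GC box was found in 15786 of 35116 promoter windows of RefSeq (45.0%), and the median share of G and C was 58.7% over all windows and 63.0% over the 19 windows of the 10 members.

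DHRS3 (ENSG00000162496, chromosome 1 from 12567910 to 12617731, minus strand) reduces retinaldehyde back to retinol. Its counts were 43, 41 and 38 in vehicle, 25, 37 and 61 with VPA and 33, 87 and 56 with VPA + Rapamycin. The vehicle libraries were close to each other and the treated ones spread on both sides of them. The log2 change of DHRS3 was -0.08 with VPA (95% confidence interval -0.85 to 0.70, adjusted p = 0.891, edgeR), and 0.54 between VPA + Rapamycin and VPA (95% confidence interval -0.21 to 1.29, adjusted p = 0.411).

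ALDH1A2 is 1 of 3 related retinaldehyde dehydrogenases, and per kilobase ALDH1A1 made up most of their sum. ALDH1A1 had 12, 9 and 9 counts in vehicle, 69, 52 and 58 with VPA and 40, 33 and 27 with VPA + Rapamycin. These are 3 groups without overlap, in the same order as for ALDH1A2. ALDH1A1 rose with VPA by a log2 change of 2.49 (SE 0.35, adjusted p = 0.000473, edgeR). It was also higher with VPA + Rapamycin than in vehicle, by 1.67 on the log2 scale (SE 0.39, adjusted p = 0.0154), and its log2 change between VPA + Rapamycin and VPA was -0.82 (SE 0.29, adjusted p = 0.0989). ALDH1A3 stayed at 0 to 9 counts in the 9 libraries. The summed level of the 3 genes was 0.284 ± 0.047 CPM per kilobase in vehicle, 1.46 ± 0.16 with VPA and 0.859 ± 0.166 with VPA + Rapamycin. ALDH1A1 held 76.9 ± 3.0% of that sum in vehicle, 84.9 ± 6.0% with VPA and 82.0 ± 1.9% with VPA + Rapamycin. These shares rest on a single length per gene, 8622 bases for ALDH1A2. Without division by length, ALDH1A1 was at 0.620 ± 0.080 CPM in vehicle and 3.54 ± 0.50 with VPA. ALDH1A2 was at 0.392 ± 0.241 and 1.77 ± 0.60 CPM, so the gap between the genes was smaller. At the step before, RDH10, which oxidises retinol to retinaldehyde, had 126, 161 and 218 counts in vehicle and 544, 485 and 445 with VPA. The log2 change of RDH10 was 1.46 (SE 0.21, adjusted p = 0.000466, edgeR), but RDH10 shares 1178 bases with RPL7 on the opposite strand, whose mean was 15788 counts against 356 for RDH10, so its counts are uncertain.

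The cytoplasmic carriers were the most abundant members. CRABP1 (ENSG00000166426, chromosome 15 from 78340324 to 78348230, plus strand) is known as a marker of retinoic acid responsive neural cells and neural crest. It had 5379, 3574 and 3886 counts in vehicle, 4824, 3873 and 5124 with VPA and 4712, 4061 and 3419 with VPA + Rapamycin. The 3 conditions overlapped. Its log2 change with VPA was 0.03, with a 95% confidence interval of -0.26 to 0.32 (adjusted p = 0.872, edgeR), so a change of CRABP1 beyond 1.25-fold upward or to 0.837 of vehicle downward lies outside that interval. Against VPA, VPA + Rapamycin gave -0.16 (95% confidence interval -0.36 to 0.04, adjusted p = 0.362).

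CRABP2 (ENSG00000143320, chromosome 1 from 156699606 to 156705816, minus strand), which hands retinoic acid to the RAR proteins, had 2320, 1469 and 1434 counts in vehicle, 2258, 2011 and 2222 with VPA and 1875, 1820 and 1488 with VPA + Rapamycin. Vehicle replicate 1 stood above the other vehicle libraries and above each treated library, and VPA and VPA + Rapamycin did not overlap. The level was 108 ± 26.0 CPM in vehicle, 128 ± 5.72 with VPA and 104 ± 9.08 with VPA + Rapamycin. CRABP2 fell with Rapamycin added to VPA, by a log2 change of -0.30 (SE 0.079, adjusted p = 0.0265, edgeR), to 0.810 of the VPA level (95% confidence interval 0.722 to 0.909). This call was lost under 5 of 13 alternatives, with adjusted p from 0.00504 to 0.353. They were the fit of all 9 libraries and the fits without each of VPA replicates 1, 2 and 3 and without VPA + Rapamycin replicate 3. Between VPA and vehicle the log2 change of CRABP2 was 0.25 (SE 0.15, adjusted p = 0.229), and 0.46 (adjusted p = 0.00269, edgeR) without vehicle replicate 1. CRABP2 held 26.7 ± 1.6% of the summed carrier level per kilobase in vehicle, 29.9 ± 1.9% with VPA and 27.8 ± 1.2% with VPA + Rapamycin.

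Among the receptors RARA fell and RARG rose with VPA. RARA (ENSG00000131759, chromosome 17 from 40309192 to 40357643, plus strand), the most widely expressed of the 3, had 807, 720 and 638 counts in vehicle. With VPA it had 351, 394 and 419 counts, and with VPA + Rapamycin 495, 665 and 454. All VPA libraries lay below all others, and VPA + Rapamycin replicate 2 came close to the lowest vehicle library, with no overlap in CPM (44.9 ± 4.67, 23.0 ± 1.80 and 32.3 ± 5.61). RARA fell with VPA to 0.510 of vehicle (95% confidence interval 0.419 to 0.620), a log2 change of -0.97 (SE 0.13, adjusted p = 0.000336, edgeR). By p-value RARA ranked 484 among the 17360 genes, and the call held under all 13 alternatives run for it. The requirement of a log2 change of 1 or more in size is not among these 13, and RARA fell just short of it. With Rapamycin added RARA rose to 1.41 times VPA (95% confidence interval 1.18 to 1.68), a log2 change of 0.49 (SE 0.12, adjusted p = 0.0209, edgeR). It was still below vehicle by 0.48 on the log2 scale (SE 0.15, adjusted p = 0.0427, edgeR). The call against VPA was lost under 4 of 13 alternatives (adjusted p from 0.00156 to 0.130), namely the fit of all 9 libraries and the fits without VPA replicate 1, VPA replicate 2 and VPA + Rapamycin replicate 2. The call against vehicle was lost under 5 of 13 (adjusted p from 0.0107 to 0.175), namely upper-quartile normalization and the fits without vehicle replicate 1, vehicle replicate 2, VPA + Rapamycin replicate 1 and VPA + Rapamycin replicate 3.

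RARG (ENSG00000172819, chromosome 12 from 53210567 to 53232980, minus strand) is the receptor of presomitic mesoderm, tail bud and mesenchyme in the embryo. It had 102, 32 and 58 counts in vehicle, 242, 177 and 192 with VPA and 171, 123 and 125 with VPA + Rapamycin. The groups did not overlap, with vehicle lowest and VPA highest, and vehicle varied most, with a coefficient of variation of 50.7%. VPA raised RARG by 3.05-fold (95% confidence interval 1.89 to 4.93), a log2 change of 1.61 (SE 0.32, adjusted p = 0.00310, edgeR), and the call held under all 13 alternatives run for it. VPA + Rapamycin was higher than vehicle by 2.12-fold (95% confidence interval 1.28 to 3.52), a log2 change of 1.09 (SE 0.33, adjusted p = 0.0421, edgeR). That call was lost under 4 of 13 alternatives (adjusted p from 0.00293 to 0.160), the fits without vehicle replicate 2 and without each VPA + Rapamycin library. Between VPA + Rapamycin and VPA the log2 change of RARG was -0.52 (SE 0.18, adjusted p = 0.0914, edgeR). This passed under 2 of 13 alternatives (adjusted p from 0.0354 to 0.449), no filter and the fit without VPA + Rapamycin replicate 1.

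RARB (ENSG00000077092, chromosome 3 from 25174332 to 25597932, plus strand) is known as a receptor gene that retinoic acid itself induces. It had 156, 111 and 172 counts in vehicle, 204, 218 and 175 with VPA and 135, 177 and 177 with VPA + Rapamycin, with overlap in CPM between each pair of conditions. The log2 change of RARB was 0.37 with VPA (95% confidence interval -0.06 to 0.81, adjusted p = 0.174, edgeR), and -0.27 with Rapamycin added (95% confidence interval -0.63 to 0.09, adjusted p = 0.398). The last 28 bases of RARB overlap TOP2B on the opposite strand, whose mean was 5237 counts against 169 for RARB, so a part of the RARB counts can belong to TOP2B.

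**Figure D3:**
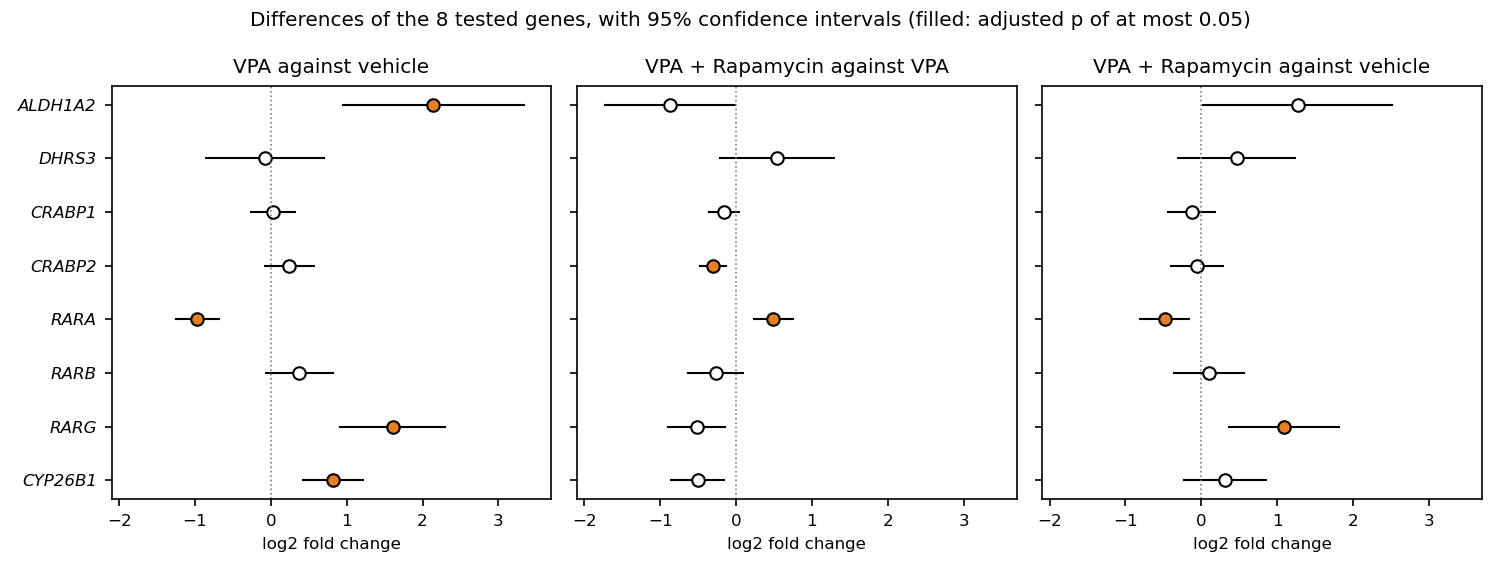
Log2 change of the 8 tested genes in the 3 comparisons, with 95% confidence intervals as lines and filled points where edgeR gave an adjusted p up to 0.05. With VPA, 3 genes are filled above 0 and RARA below it; with Rapamycin added to VPA, RARA is filled above 0 and CRABP2 below it; against vehicle, VPA + Rapamycin keeps RARG filled above 0 and RARA below it.

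Per kilobase, RARA made up 74.7 ± 5.5% of the 3 RAR messages in vehicle, 46.7 ± 4.5% with VPA and 61.1 ± 4.7% with VPA + Rapamycin. The share of RARG was 5.91 ± 2.62%, 22.6 ± 3.7% and 14.97 ± 3.9%, and that of RARB 19.4 ± 4.3%, 30.6 ± 3.1% and 24.0 ± 4.0%. For RARA and RARG no pair of conditions overlapped in these shares (two-sided exact permutation test, p = 0.1 each, the smallest possible). The summed level of the 3 messages was 12.7 ± 0.95 CPM per kilobase in vehicle, 10.4 ± 0.54 with VPA and 11.1 ± 1.09 with VPA + Rapamycin. The vehicle and VPA sums did not overlap (p = 0.1, exact permutation test), and for VPA + Rapamycin against VPA the exact p was 0.5.

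Among the RXR partners RXRG rose and RXRB fell with VPA. RXRG had 104, 67 and 43 counts in vehicle, 143, 161 and 161 with VPA and 151, 177 and 125 with VPA + Rapamycin. It rose with VPA by a log2 change of 1.05 (SE 0.28, adjusted p = 0.0140, edgeR) and was higher with VPA + Rapamycin than in vehicle by 1.03 (SE 0.28, adjusted p = 0.0284). RXRB had 726, 651 and 567 counts in vehicle and 419, 456 and 479 with VPA, a log2 change of -0.60 (SE 0.13, adjusted p = 0.00492, edgeR), and it shares 244 bases with SLC39A7 on the opposite strand, whose mean was 1292 counts against 534 for RXRB. RXRA had a log2 change of 0.10 with VPA (SE 0.14, adjusted p = 0.632). The share of RXRG in the 3 RXR messages per kilobase was 9.23 ± 2.38% in vehicle, 21.3 ± 0.71% with VPA and 20.5 ± 1.7% with VPA + Rapamycin, and that of RXRB was 59.8 ± 4.0%, 42.7 ± 0.36% and 47.2 ± 2.2%. The RXR sum was 17.3 ± 2.62, 16.0 ± 0.85 and 16.4 ± 1.00 CPM per kilobase, with overlap.

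**Figure D4:**
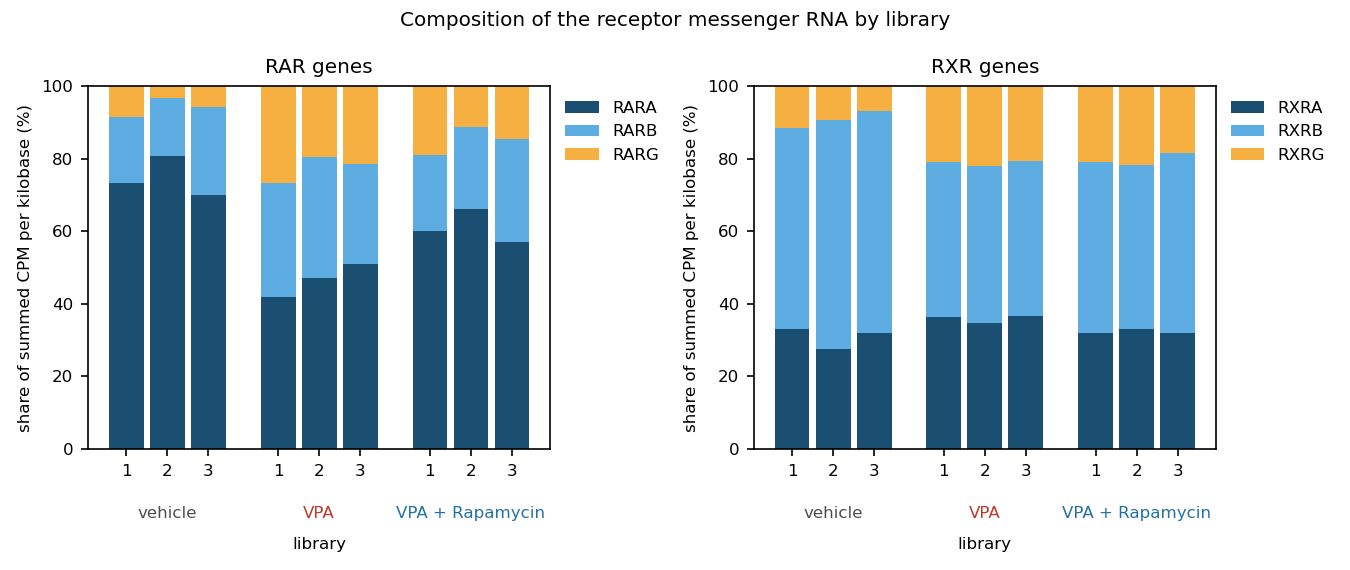
Share of each gene, in percent, in the summed CPM per kilobase of the 3 RAR genes (left) and the 3 RXR genes (right), with a bar for each of the 9 libraries. The share of RARA is 70.0 to 80.8% in vehicle, 42.0 to 51.1% with VPA and 57.0 to 66.2% with VPA + Rapamycin, and RARG and RXRG take larger shares in the treated libraries.

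The promoters of RARG and RARB are shown because RARG rose with VPA and RARB is a known target of its own ligand. The RARG window, the single RefSeq start of this gene, lies at chr12:53232160-53232459 on the minus strand of GRCh38.p14, with GC boxes in capitals. The RARB stretch lies at chr3:25428190-25428246 on the plus strand, with a direct repeat of the core site that RAR and RXR dimers bind in capitals.
RARG promoter: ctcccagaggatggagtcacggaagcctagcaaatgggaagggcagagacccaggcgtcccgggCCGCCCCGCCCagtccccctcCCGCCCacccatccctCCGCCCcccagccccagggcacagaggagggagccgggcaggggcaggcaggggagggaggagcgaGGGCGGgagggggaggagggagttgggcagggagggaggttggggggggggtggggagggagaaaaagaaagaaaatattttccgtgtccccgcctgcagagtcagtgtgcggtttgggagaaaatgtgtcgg
RARB repeat: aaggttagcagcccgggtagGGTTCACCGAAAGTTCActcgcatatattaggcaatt
Core sites were searched as NGNTCA on both strands, A or G for the first N and G or T for the second, and as pairs spaced by 1, 2 or 5 bases. The RARB repeat, spaced by 5, begins 53 bases before 1 of its 4 RefSeq starts. Repeats spaced by 5 were found in 31 of 35116 windows (0.0883%), those spaced by 1 in 46 (0.131%) and those spaced by 2 in 14 (0.0399%). The RARG window holds 5 GC boxes and no such repeat, and the 3 windows of RARA hold 1, 5 and 3 GC boxes and no such repeat. The AP-1 motif TGANTCA, which 2707 windows hold (7.71%), was found among the members in the CRABP1 window, 35 bases before the start, and in 1 of 3 DHRS3 windows. A match in these windows is a description of sequence, and no binding was measured here.

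CYP26B1 made up nearly all of the CYP26 message. CYP26B1 (ENSG00000003137, chromosome 2 from 72129238 to 72148038, minus strand) held 98.9 ± 1.3% of the summed CYP26 level per kilobase in vehicle, 99.3 ± 0.26% with VPA and 99.7 ± 0.51% with VPA + Rapamycin. It had 560, 322 and 354 counts in vehicle, 781, 621 and 891 with VPA and 647, 345 and 584 with VPA + Rapamycin. All VPA libraries lay above all vehicle libraries, while VPA + Rapamycin replicate 2 lay just below the lowest vehicle library in CPM. The level was 25.4 ± 6.69, 45.2 ± 6.28 and 31.8 ± 10.2 CPM. VPA raised CYP26B1 by 1.77-fold (95% confidence interval 1.34 to 2.32), a log2 change of 0.82 (SE 0.18, adjusted p = 0.00577, edgeR), and the call held under all 13 alternatives run for it. The requirement of a log2 change of 1 or more in size is not among these 13, and CYP26B1 fell short of it. Between VPA + Rapamycin and VPA its log2 change was -0.51 (SE 0.17, adjusted p = 0.0797, edgeR), which passed under 3 of 13 alternatives (adjusted p from 8.31e-05 to 0.356). With the replicate number as a block it was -0.54 and was called (adjusted p = 0.000903, edgeR). Against vehicle it was 0.31 (SE 0.25, adjusted p = 0.406).

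CYP26A1 (ENSG00000095596, chromosome 10 from 93073475 to 93077890, plus strand) is the CYP26 gene best known as a target that retinoic acid induces. It had 2, 0 and 2 counts in vehicle, 0, 1 and 3 with VPA and 0, 0 and 0 with VPA + Rapamycin. CYP26C1 (ENSG00000187553, chromosome 10 from 93060808 to 93069536, plus strand), its neighbour, had 1, 0 and 5 counts in vehicle, 3, 2 and 3 with VPA and 5, 0 and 0 with VPA + Rapamycin. Neither could be told apart between conditions at this depth, where a count of 0 allows a level of up to 0.172 to 0.196 CPM in a library, and no fold change is given.

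The promoters of CYP26B1 and CYP26A1 are shown because the first gene carries nearly all CYP26 message and the second, at or near 0 counts, holds a repeat for the receptors. The CYP26B1 window, the single RefSeq start of this gene, lies at chr2:72147813-72148112 on the minus strand and has no match to the motifs searched. The CYP26A1 stretch lies at chr10:93073783-93073839, is written on the plus strand and has the repeat spaced by 5 in capitals, read from the minus strand.
CYP26B1 promoter: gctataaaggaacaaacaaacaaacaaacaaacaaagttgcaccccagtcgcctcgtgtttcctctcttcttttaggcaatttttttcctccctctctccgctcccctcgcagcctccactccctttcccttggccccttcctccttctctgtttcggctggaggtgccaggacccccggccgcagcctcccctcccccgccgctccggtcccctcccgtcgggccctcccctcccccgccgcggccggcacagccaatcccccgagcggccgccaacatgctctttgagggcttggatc
CYP26A1 repeat: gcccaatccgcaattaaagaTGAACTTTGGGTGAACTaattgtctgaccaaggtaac
The repeat of CYP26A1 begins 90 bases before 1 of its 2 RefSeq starts. RARB and CYP26A1 were the members with a repeat spaced by 5, and CYP26A1 was too low to be tested.

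Other genes of the pathway were taken from 5 lists of 97 genes in all, chosen by known function and with earlier results of these data known. Of 68 tested with VPA against vehicle, 15 were called higher and 21 lower (edgeR), and the median log2 change was -0.10, beside the 16.4% and 15.7% of all genes. Of 67 tested between VPA + Rapamycin and VPA, 4 were higher and 4 lower, beside 3.01% and 3.73% of all genes. Of 67 tested between VPA + Rapamycin and vehicle, 8 were higher and 13 lower, beside 9.81% and 9.22%. The 8 calls between VPA + Rapamycin and VPA became 3 or 4 without any 1 of the VPA libraries and 5 without VPA + Rapamycin replicate 2. The 21 against vehicle became 7 to 10 without any 1 of the VPA + Rapamycin libraries and 8 without vehicle replicate 2. When replicate number entered as a block, the calls of EP300, TBL1X and CYP1B1 with VPA and of FABP5 between VPA + Rapamycin and VPA were lost, at adjusted p from 0.0531 to 0.0633 (edgeR). Of the 40 genes that are named or were called, 11 overlap another gene with more than 10% of their counts.

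Enzymes of retinoid conversion numbered 19, of which 10 were tested with VPA. Of these 3 were higher and 2 lower, beside 16.4% and 15.7% of all genes. Beside RDH10 and ALDH1A1 the third to rise was CYP1B1, which can oxidise retinol, with a log2 change of 1.39 (SE 0.44, adjusted p = 0.0307, edgeR). CYP1B1 shares 170 bases with RMDN2 on the opposite strand, whose mean was 64.4 counts against 19.9 for CYP1B1. The reductase RDH11 was lower with VPA, with a log2 change of -0.58 (SE 0.099, adjusted p = 0.00140), and RDH16 had 49, 50 and 18 counts in vehicle against 9, 3 and 19 with VPA, a log2 change of -1.998 (SE 0.59, adjusted p = 0.0231). With Rapamycin added to VPA, the 11 tested enzymes had adjusted p of 0.0989 (ALDH1A1) or more (edgeR). Against vehicle, VPA + Rapamycin left 2 of 11 higher, ALDH1A1 and RDH10, and 2 lower, RDH11 and RDH16. Of all genes, 9.81% were higher and 9.22% lower there.

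Of 15 genes of retinoid transport and storage, 9 were tested with VPA and 4 were higher, beside 16.4% of all genes. LRAT, which esterifies retinol for storage, had 13, 19 and 36 counts in vehicle, 326, 251 and 243 with VPA and 106, 139 and 158 with VPA + Rapamycin. The 3 groups were far apart, with VPA highest and VPA + Rapamycin between. The log2 change of LRAT was 3.51 with VPA (SE 0.32, adjusted p = 3.78e-05, edgeR), -0.999 with Rapamycin added (SE 0.18, adjusted p = 0.00239) and 2.50 between VPA + Rapamycin and vehicle (SE 0.36, adjusted p = 0.00148). RBP7, a cellular retinol carrier, had 4, 3 and 0 counts in vehicle, 27, 40 and 54 with VPA and 31, 31 and 25 with VPA + Rapamycin, so its fold change rests on vehicle counts at or near the limit. FABP5, a carrier that can pass retinoic acid to other nuclear receptors, rose with VPA by a log2 change of 0.48 (SE 0.11, adjusted p = 0.00681, edgeR) and fell with Rapamycin added by 0.29 (SE 0.082, adjusted p = 0.0390). SCARB1, a lipoprotein receptor that takes up carotenoids, had log2 changes of 0.54 (SE 0.17, adjusted p = 0.0281) and -0.34 (SE 0.10, adjusted p = 0.0490) in the same comparisons. STRA6, the receptor for the retinol carrier of blood, had 1640, 1070 and 570 counts in vehicle, 1153, 1074 and 1237 with VPA and 1219, 1224 and 905 with VPA + Rapamycin, a log2 change with VPA of 0.01 (SE 0.26, adjusted p = 0.982). RBP4, that carrier itself, did not have counts listed for all 3 comparisons, and no test of it is given.

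All 20 receptor partners and coregulators were tested, and with VPA 3 were higher and 8 lower, beside 16.4% and 15.7% of all genes. The higher ones were RXRG and the orphan receptors NR2F1, with a log2 change of 0.43 (SE 0.12, adjusted p = 0.0215, edgeR), and NR2F2, with 0.56 (SE 0.097, adjusted p = 0.00158). Both orphan receptors are known to bind repeats that RAR and RXR dimers also bind. NR2F2 had 3665, 3554 and 4094 counts in vehicle, 5942, 5665 and 6006 with VPA and 4230, 4304 and 4506 with VPA + Rapamycin, and it fell with Rapamycin added by a log2 change of -0.41 (SE 0.073, adjusted p = 0.00219). The lower ones beside RXRB were both acetyltransferases EP300 and CREBBP, the acetyltransferase KAT2B, the coactivator NCOA2, and the corepressor NCOR1 with TBL1X and TBL1XR1 of its complex. Their log2 changes ran from -0.35 for EP300 to -0.87 for TBL1XR1 (adjusted p = 0.0239 and 0.00133, edgeR). NCOR1 overlaps TTC19 on the opposite strand, whose mean was 1206 counts against 2514. With Rapamycin added, NR2F6 was the gene called higher, by a log2 change of 0.29 (SE 0.078, adjusted p = 0.0346).

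Of 28 known retinoic acid targets, 22 were tested with VPA, and the median log2 change was -0.35. Of the 22, 4 were higher and 8 lower, beside 16.4% and 15.7% of all genes. The lower ones included 6 HOX genes of the hindbrain and cervical levels, HOXB2, HOXA3, HOXB5, HOXA5, HOXD4 and HOXB3, with log2 changes from -0.82 for HOXB3 to -1.33 for HOXB5 (adjusted p = 0.00592 and 0.00105, edgeR). MEIS1, a HOX cofactor, and BHLHE40 were lower as well, with log2 changes of -0.45 and -1.49 (adjusted p = 0.0108 and 0.00148). HOXB1 was higher, with 261, 185 and 133 counts in vehicle and 270, 373 and 345 with VPA, a log2 change of 0.70 (SE 0.22, adjusted p = 0.0320). RARRES2, which encodes chemerin, TGM2, a transglutaminase, and RET, a receptor tyrosine kinase, were higher by 1.51, 1.25 and 1.00 on the log2 scale (adjusted p = 0.000329, 0.0226 and 0.00366). TGM2 shares 394 bases with RPRD1B on the opposite strand, whose mean was 1097 counts against 41.7. HOXA3 had 555, 457 and 360 counts in vehicle, 222, 200 and 206 with VPA and 317, 341 and 259 with VPA + Rapamycin, and rose with Rapamycin added by a log2 change of 0.56 (SE 0.13, adjusted p = 0.0151), as did HOXB5 by 0.55 (SE 0.15, adjusted p = 0.0346). These were the 2 of 21 targets called in that comparison, beside 3.01% of all genes called higher and 3.73% lower. HOXA3, HOXA5, HOXB3, HOXB5 and HOXD4 each overlap neighbouring HOX genes, and their counts can be mixed. Against vehicle, VPA + Rapamycin left 2 of 22 targets higher, RARRES2 and RET, and 6 lower, the 6 HOX genes named above. The shares of all genes were 9.81% higher and 9.22% lower.

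Of 15 genes of axial progenitors, 7 were tested with VPA, 1 was higher and 2 lower, beside 16.4% and 15.7% of all genes. NKX1-2, a gene of the neuromesodermal progenitors that FGF maintains, had 167, 140 and 143 counts in vehicle, 68, 28 and 50 with VPA and 116, 110 and 118 with VPA + Rapamycin, without overlap. NKX1-2 fell with VPA by a log2 change of -1.70 (SE 0.29, adjusted p = 0.00131, edgeR) and rose with Rapamycin added by 1.26 (SE 0.26, adjusted p = 0.00722). FGF17, an FGF ligand, was lower with VPA, with a log2 change of -1.23 (SE 0.34, adjusted p = 0.0177). HES7, a gene of the segmentation clock, had 28, 24 and 32 counts in vehicle, 206, 149 and 141 with VPA and 143, 170 and 132 with VPA + Rapamycin, a log2 change with VPA of 2.48 (SE 0.26, adjusted p = 8.35e-05).

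**Figure D5:**
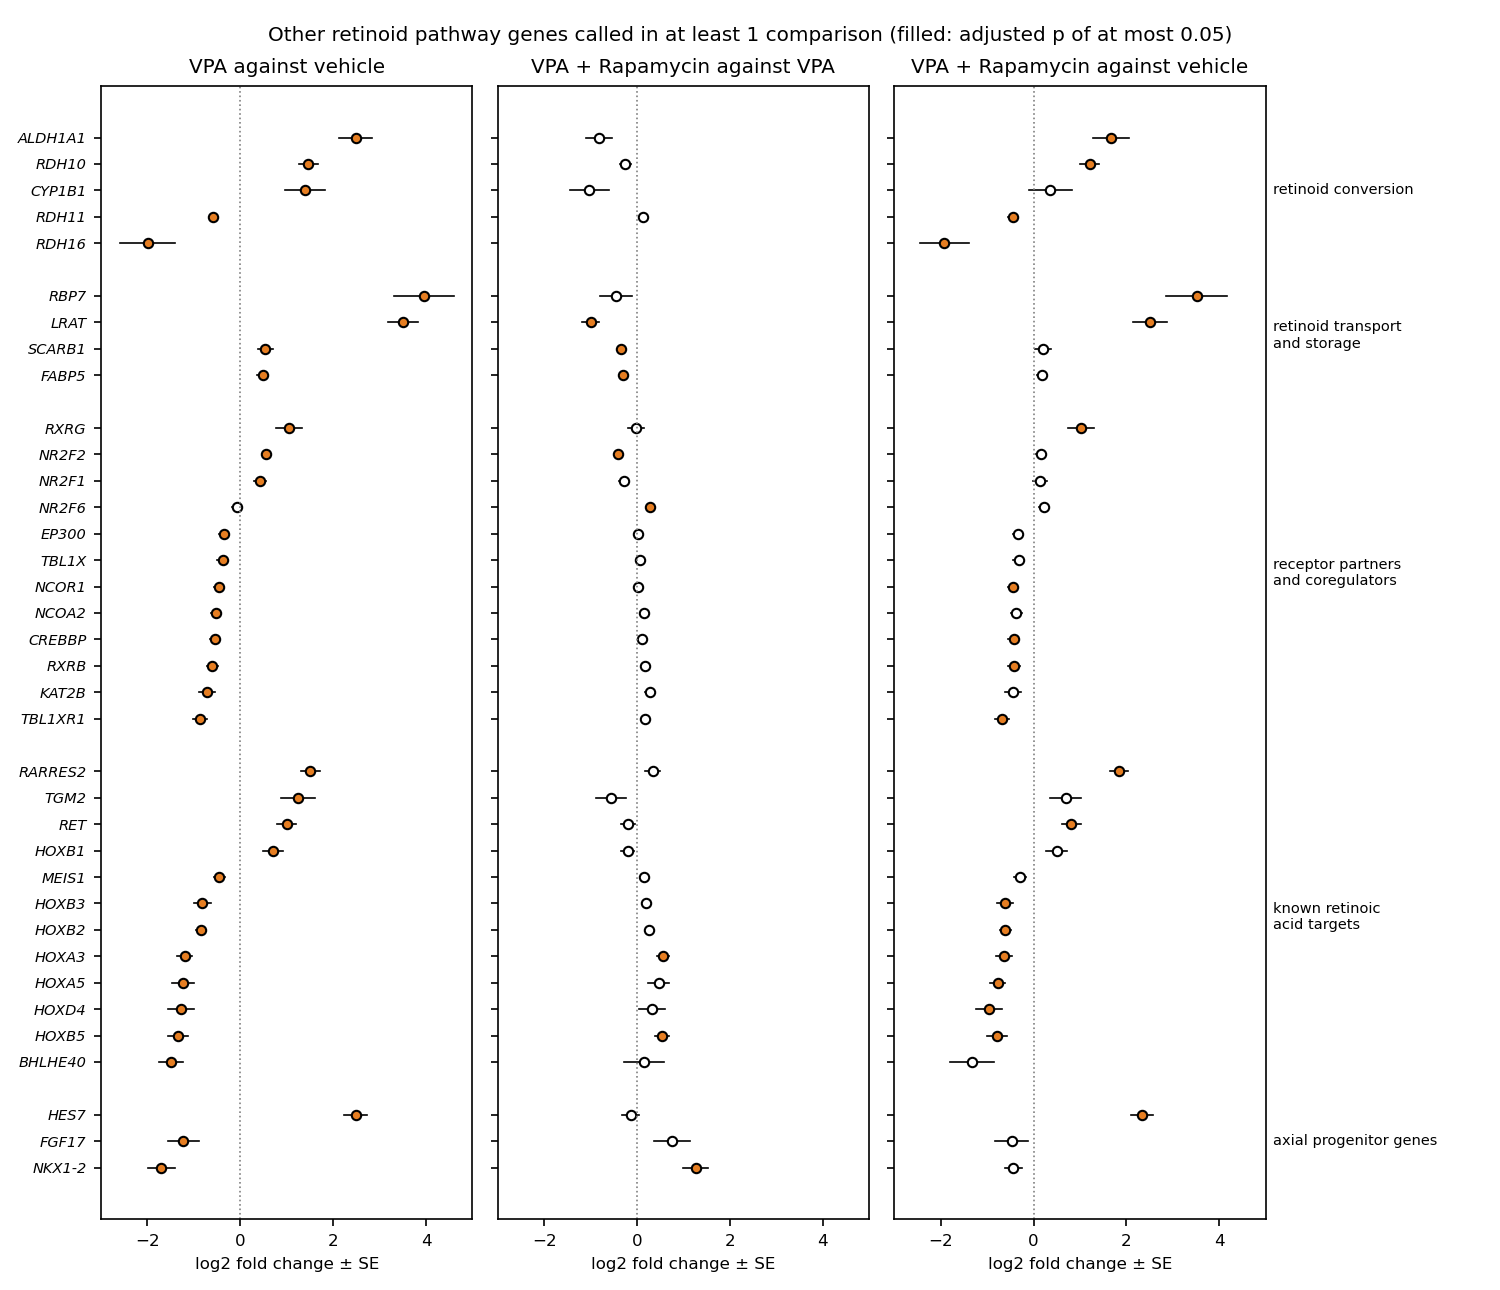
Log2 change with its SE for the other retinoid pathway genes called in at least 1 of the 3 comparisons, with 1 gene left out, grouped by list, with filled points where edgeR gave an adjusted p up to 0.05 and no point where a gene was below the filter. With VPA, LRAT, RBP7, ALDH1A1 and HES7 lie furthest above 0, the HOX genes other than HOXB1 and the genes from EP300 to TBL1XR1 lie below it, and 8 points are filled in the comparison of VPA + Rapamycin with VPA.

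Summed levels of cell type markers differed between conditions for some lists and overlapped for others. Beside the calls given below, the shares over all genes were 16.4% higher and 15.7% lower with VPA. They were 3.01% and 3.73% with Rapamycin added to VPA, and 9.81% and 9.22% between VPA + Rapamycin and vehicle. The summed level of 9 mesenchyme markers was 149 to 313 CPM in vehicle, 578 to 734 with VPA and 256 to 382 with VPA + Rapamycin. Of the 8 tested, 2 were higher with VPA and 6 lower with Rapamycin added. The 7 neuron markers summed to 1099 to 1183 CPM with VPA and 1189 to 1234 with VPA + Rapamycin, below vehicle, and 5 of 7 were lower with VPA. The trunk HOX sum was 517 to 675 CPM with VPA and 582 to 774 with VPA + Rapamycin, with 5 of 7 lower in each against vehicle. The 6 neural crest markers summed to 393 to 477 CPM in vehicle, 378 to 400 with VPA and 373 to 413 with VPA + Rapamycin. Of the 5 tested, 3 were lower with VPA and 2 higher with Rapamycin added. The median log2 change of the 5 was -1.37 with VPA and 1.13 with Rapamycin added, which their sum does not show. For paraxial mesoderm, the tissue in which ALDH1A2 is best known, the 8 markers found in all tables summed to 30.1 to 44.3 CPM in vehicle, 24.6 to 33.2 with VPA and 24.3 to 32.4 with VPA + Rapamycin, and FOXC2 and TBX18 were at 0 in vehicle. Of 4 tested with VPA, 1 was higher and 1 lower, at a median log2 change of -0.68. With Rapamycin added, 1 of 3 tested was higher. Between VPA + Rapamycin and vehicle, 1 of 4 tested was higher and 2 were lower. The 6 neural progenitor markers summed to 2807 to 2983 CPM with VPA, above vehicle, and to 2501 to 2742 with VPA + Rapamycin, and with VPA 1 of 6, HES5, was higher. The 5 motor neuron markers summed to 26.8 to 40.5 CPM in vehicle, 34.9 to 41.6 with VPA and 33.0 to 63.3 with VPA + Rapamycin. With VPA 2 of 5 were higher and 2 lower, and the median log2 change of the 5 was -0.43. The brain sum was 7.53 to 10.99 CPM with VPA, below vehicle, and 12.5 to 21.4 with VPA + Rapamycin, with 1 of 4 tested higher and 2 lower with VPA. The 3 pluripotent cell markers found in all tables summed to 137 to 223 CPM in vehicle, 89.6 to 112 with VPA and 102 to 125 with VPA + Rapamycin, and the 1 tested was lower with VPA. Endothelium markers stayed at 1.11 to 3.58 CPM over the 9 libraries. The part of these cell types in the changes of RARA, RARG, CYP26B1 and ALDH1A2 was not tested.

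Genes with a pattern over the 9 libraries most like that of a called member were listed by Pearson's r of log2 CPM among 16733 genes, as a description over 9 libraries that share 3 conditions. For RARA these were AC105285.1 (r = 0.985), TRO (0.982) and HOXB8 (0.981), and for RARG they were GBX1 (0.985), KCNJ8 (0.983) and NPPC (0.976). For CYP26B1 they were FOXA3 (0.956), CLDN3 (0.948) and HOXB-AS1 (0.928), and for ALDH1A2 they were ANGPTL2 (0.986), AATF (0.983) and NCCRP1 (0.981). For CRABP2 they were UQCRC1 (0.982), NOB1 (0.972) and IMPDH2 (0.967).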

How the data were processed

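Poly-A RNA of SCOs was sequenced in 9 libraries. According to the submitters' processing notes the authors used HISAT2 2.0.5 and featureCounts 1.5.0-p3, and the strand setting is not given in the sources used here. The deposited counts are whole reads per gene without normalization, in tables of 2 conditions each, with gene length and coordinates on GRCh38, and counts of a library in its 2 tables were identical. A further 36 per-sample columns of normalized values and FPKM were not used, nor were the authors' own fold changes and p-values.

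Each pair was compared within its table in R 4.3.3 with edgeR 4.0.16 (TMM, filterByExpr at its defaults, quasi-likelihood F test, Benjamini-Hochberg over all genes tested, threshold 0.05), without a replicate block. Standard errors were derived from each estimate and its F statistic. Levels use TMM factors over the 9 libraries. Shares within a family use CPM divided by gene length, a single value per gene, and which transcripts were present is not known. Patterns were compared on log2 CPM with a prior count of 1. Intervals cover 95%, and the limit of detection of 3 counts covers counting error only. Exact permutation tests of 3 libraries against 3 draw on 20 splits and cannot go below p = 0.1.

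Named were the 10 members, the other pathway genes called in any comparison (1 is counted but not reported here) with RXRA, ALDH1A3, RBP4 and STRA6, sums of marker lists with single markers at 0, overlapping genes with more than 10% of a gene's counts, and the 3 genes most like each called member. The members and lists were chosen with earlier results of these data known. Promoters of all 10 members were matched by symbol to RefSeq windows on GRCh38.p14. Alternatives were DESeq2 1.42.0, upper-quartile normalization, no filter, a minimum of 10 counts in each library, 1 fit of the 9 libraries, the replicate block, protein-coding genes alone, a log2 change of 1 or more in size, and omission of each library. The fits were tested on simulated data.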

Additional observations from a re-analysis of the deposited data

How the results depend on the processing

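Of 310 values of single members under the alternatives, 277 kept their direction and their side of the threshold, 19 lost the call, 6 gained one and 8 changed sign. The sign changed for CRABP1 with VPA without vehicle replicate 2 (-0.046), vehicle replicate 3 (-0.026) or VPA replicate 3 (-0.014), for DHRS3 with VPA without VPA replicate 1 (0.18), and between VPA + Rapamycin and vehicle for CRABP1 (0.024) and CRABP2 (0.15) without vehicle replicate 1, for CRABP2 without VPA + Rapamycin replicate 3 (0.012) and for RARB without vehicle replicate 2 (-0.028). None of these values was called. Without each library in turn these log2 changes ran from -0.046 to 0.19 for CRABP1 and from -0.43 to 0.18 for DHRS3 with VPA, and between VPA + Rapamycin and vehicle from -0.028 to 0.24 for RARB, from -0.23 to 0.024 for CRABP1 and from -0.18 to 0.15 for CRABP2. Members called numbered 4, 2 and 2 with VPA against vehicle, VPA + Rapamycin against VPA and VPA + Rapamycin against vehicle, and other pathway genes 36, 8 and 21. Requiring a log2 change of 1 or more in size left 2, 0 and 1 members and 18, 1 and 8 pathway genes. The members left were RARG and ALDH1A2 with VPA and RARG between VPA + Rapamycin and vehicle, so the VPA calls of RARA and CYP26B1 were lost. Between VPA + Rapamycin and VPA, members called were 4 without the filter and 0 in the fit of all 9 libraries (edgeR), where 3 members had an unadjusted p under 0.05 and 1 pathway gene was called, and DESeq2 called 2 members. In that comparison the fit of all 9 libraries called 44 genes higher and 69 lower in the whole transcriptome, against 522 and 646. Upper-quartile normalization left 1 member called between VPA + Rapamycin and vehicle. With at least 10 counts required in each library, 3 of 7 tested members were called with VPA, and ALDH1A2 was not tested. Leaving out each library gave 3 to 5, 0 to 4 and 0 to 2 members and 27 to 40, 3 to 6 and 7 to 26 pathway genes, so each omission lowered the count of 8 between VPA + Rapamycin and VPA. The cause of these shifts was not tested.

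Correlations between deviations of libraries with the same replicate number ran from -0.0595 to 0.159 and were not all above 0.1, and no source ties a number to a clone, so the numbers were not taken as pairs, and 2, 3 and 5 of 6 libraries correlated best with their own number. With the replicate number as a block, 4, 3 and 2 members and 35, 8 and 28 pathway genes were called, the added member being CYP26B1 between VPA + Rapamycin and VPA (log2 fold change -0.54, adjusted p = 0.000903 from edgeR). Of the pathway calls 33, 7 and 21 were kept, 3, 1 and 0 lost and 2, 1 and 7 gained. Depth limits CYP26A1, CYP26C1 and ALDH1A3, and vehicle ALDH1A2 and RBP7.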
